A study of Drosophila melanogaster with 16 samples.

Results

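The 40 genes described here encode proteins of the cytosolic ribosome of Drosophila melanogaster, or close relatives of those proteins. They were chosen by gene symbol alone, as every RpL or RpS gene, the stalk genes RpLP0, RpLP1 and RpLP2, and sta where it was named. The rule found 46 probe sets among 18952 on the array, and each gene is represented by its probe set with the highest mean, which leaves 40 genes of 11982 with a single annotated symbol. Of 92 symbols in the RefSeq gene table that fit the rule, 52, sta among them, had no probe set with that symbol alone and were not analysed here. The members comprise 21 RpL genes, 16 RpS genes and 3 stalk genes. They lie on arms 3R (14 genes), 2L (9), 2R (9) and 3L (5) and on the X chromosome (3).

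A ribosome has a small subunit, which reads the messenger RNA, and a large subunit, which joins the amino acids. Proteins named RpS belong to the small subunit and those named RpL to the large one, and the stalk proteins recruit translation factors. Loss of a single copy of many of these genes gives the Minute phenotype in flies, with slow growth and thin bristles. The genome also holds duplicate copies of several of them, some of which are known for expression in the germ line, and a few "-like" relatives that act in ribosome assembly.

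Total RNA of wing discs or brain complexes dissected from larvae of the last instar was read on 16 arrays. Wild-type larvae were dissected on day 5 after the eggs were laid, and each tissue had 2 arrays. Larvae carrying lgl27S3/lglE2S31 (an lgl-null combination) or scrib1/scrib2 were taken on day 9, with 3 arrays per tissue and genotype, and are labelled as having tumours. Age and genotype therefore cannot be told apart in any comparison of a mutant with wild type, and both mutants are set against the same wild-type arrays. The labels do not say whether replicates came from separate animals, so a p-value here reflects the spread among these samples alone, which may be technical. Fewer cells of a type and less RNA per cell cannot be told apart in such samples.

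The values are GCRMA signals on a log2 scale, a brightness per probe set with a lowest value of 2.21. Signals of different probe sets do not give relative RNA amounts, so each gene is compared only with itself. Genes at or above 4 on at least 2 arrays were tested with limma in a model over all 16 arrays. Calls were made where the p adjusted by Benjamini-Hochberg over all 8819 tested probe sets was below 0.05. The labelled tissues matched their markers in wild type: all 12 tested wing disc genes were higher in discs than in brains and all 9 neuronal genes were lower. Of the 12 wing disc genes 6 were lower in lgl discs and 4 in scrib discs than in wild-type discs, and 0 were higher in either. In both mutant discs 4 of 5 fat body and 3 of 4 muscle markers were lower than in wild type. Salivary gland markers were lower for 4 of 6 in lgl and 3 of 6 in scrib discs. Hemocyte markers were higher for 4 of 8 in lgl and 0 of 8 in scrib discs. Of all 7213 tested genes 5.63% were lower in lgl and 9.95% in scrib discs, and 12.6% and 12.9% higher. Wild-type disc replicates 1 and 2 had list means of 12.27 and 9.99 for fat body and 7.81 and 5.15 for muscle. For salivary gland they had 5.04 and 8.48. In wild type 3 of 5 fat body and 3 of 4 muscle markers were higher in discs than in brains, against 20.6% of all tested genes. All 4 tested ring gland genes were lower in both mutant brains. The part of these tissues in the results below was not tested.

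The members fell into 3 bands of signal, with bounds set after the values were seen. In the brightest band lay 30 genes with a mean of 13 or more, 16 of the large subunit, 11 of the small subunit and the 3 stalk genes. Their signals sat close to the highest value of each array, which ran from 15.63 to 15.94 over the 16 arrays. On most arrays a bright member itself, often RpL41, gave that highest value. Closeness to it therefore does not show where the scale ends. A second band held RpS5b, RpL7-like and RpL24-like. The lowest band held 7 genes. The plot of all members by array shows these bands.

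**Figure D1:**
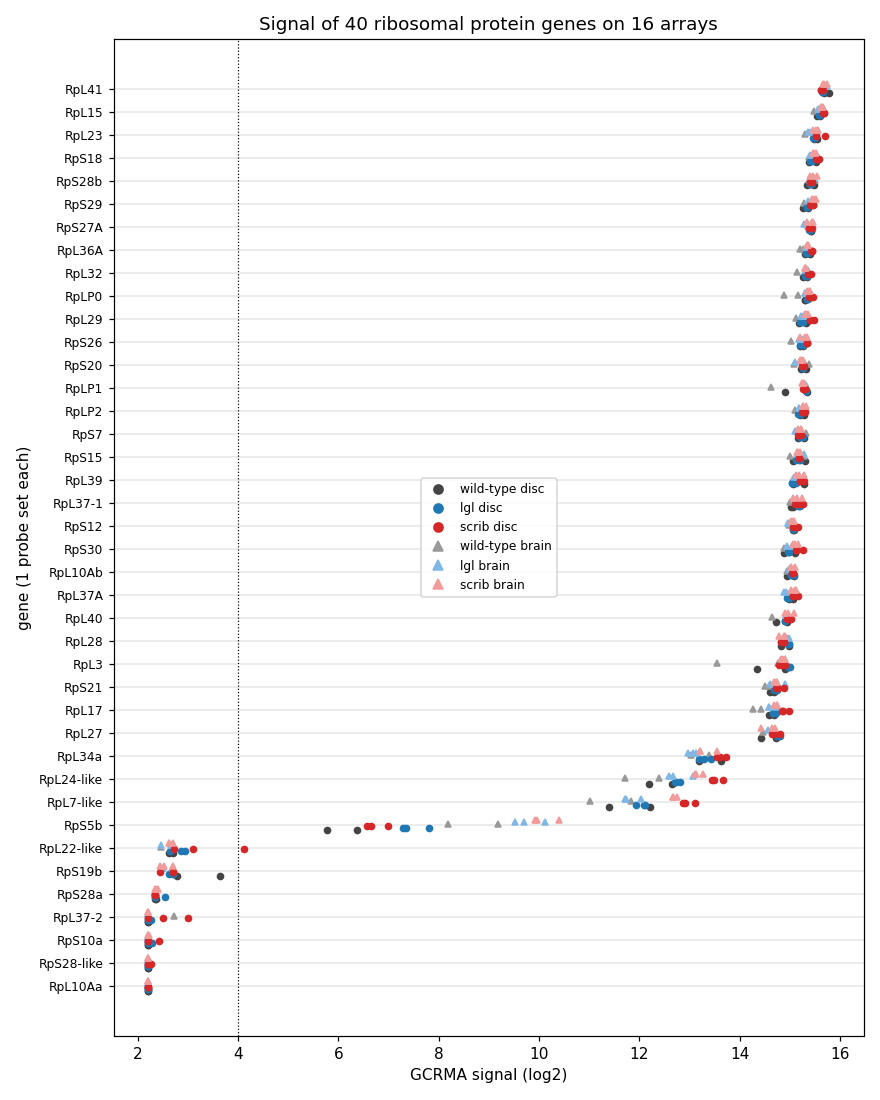
Signal of each of the 40 genes (log2, horizontal axis) on each of 16 arrays, with genes ordered by their mean and groups marked by colour and shape; the dotted line stands at 4, the minimum for testing. The 30 bright genes form a tight column on the right, RpS5b spreads from 5.78 to 10.39, and 7 genes stay near 2.21 to 4.12.

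Most bright members varied little over all tissues and genotypes. RpL41, the shortest large-subunit protein, read 15.79 and 15.68 in wild-type discs, 15.66, 15.65 and 15.63 in lgl discs and 15.62, 15.67 and 15.62 in scrib discs. In brains RpL41 read 15.65 and 15.68 in wild type, 15.74, 15.70 and 15.66 in lgl and 15.68, 15.73 and 15.65 in scrib. The brain groups overlapped, and the 6 mutant disc arrays all lay below both wild-type disc arrays by small steps. The other brightest members were RpL15, RpL23, which lies at the face between the subunits, RpS18 and RpS28b. Over 16 arrays they ran from 15.49 to 15.68, 15.31 to 15.69, 15.38 to 15.58 and 15.35 to 15.55.

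The narrowest range among the bright genes was 0.16, in RpL10Ab, and the widest was 1.45, in RpL3, a protein near the peptidyl transferase centre. RpS12, which takes part in the competition between cells with and without Minute mutations, ran from 14.97 to 15.15. RpS27A and RpL40 are made as fusions with ubiquitin. RpS27A ran from 15.28 to 15.47 and RpL40 from 14.64 to 15.08.

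Replicates of the bright members agreed closely. Their median residual SD was 0.06 log2, against 0.28 for all tested probe sets. The value was 0.14 for 84 named probe sets of other genes that also had a mean of 13 or more. These others were mostly dimmer: of 47 named probe sets with a mean of 14 or more, 29 were bright members. A further 74 probe sets with a mean of 13 or more had no gene symbol and were left out of this count. Whether some of them belong to ribosomal protein genes was not tested. The pooled SD within a group of the bright genes was 0.14 log2 in wild-type discs and 0.22 in wild-type brains. It ran from 0.03 to 0.07 in the groups of mutants. The bright genes' standard errors in a comparison of mutant with wild type were 0.105 log2 or more, since the model shares variance between genes. How far signals this near the top of the scale still follow the RNA amount was not tested.

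RpL3 and the stalk gene RpLP1 stood apart on 2 wild-type arrays. RpL3 read 14.34 on wild-type disc replicate 1 and 13.56 on wild-type brain replicate 1. On the other 14 arrays RpL3 lay between 14.77 and 15.004. RpLP1 read 14.91 and 14.62 on these same arrays and 15.24 to 15.34 elsewhere. A dimmer RpL3 probe set was also lowest there, at 8.12 and 6.90, against 8.90 to 10.67 on the other arrays. The dimmest RpL3 probe set was not lowest there, at 4.73 and 3.89 against 3.78 to 6.02 elsewhere. Neither gene was called in any of the 11 comparisons. The largest RpL3 difference was 0.70 ± 0.27 log2 (SE) in scrib against wild-type brains (adjusted p = 0.059), and for RpLP1 it was 0.33 ± 0.18 (SE) in lgl against wild-type brains (adjusted p = 0.20). Without wild-type brain replicate 2, which leaves replicate 1 alone, both genes were called higher in lgl than in wild-type brains.

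The comparison of lgl with wild-type discs called 1 of 33 tested members, RpS5b, against 18.1% of all tested probe sets. None of the 30 bright genes passed, and 1 member had an unadjusted p below 0.05. The bright genes' differences ran from -0.11 to 0.36 log2 with a median of 0.00. The median absolute difference was 0.03 log2 for these genes and 0.34 for all tested probe sets. The 33 tested members had a median of 0.01, the same as all tested probe sets. The members' median was -0.06 with arrays centred on the median of all tested probe sets. Among the stalk genes RpLP0 differed by 0.04 (95% interval -0.21 to 0.30), RpLP1 by 0.19 (-0.20 to 0.59) and RpLP2 by -0.04 (-0.28 to 0.19).

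Scrib discs differed from wild-type discs in 2 of 33 tested members, RpL7-like and RpL24-like, both higher, against 23.2% of all tested probe sets. None of the 30 bright genes passed. Their differences ran from -0.10 to 0.26 log2, with a median of 0.10, and 24 of 30 were above 0, against 50.9% of all tested probe sets. The median of all 33 tested members was also 0.10, and fell to 0.02 with arrays centred on the median of all tested probe sets and to 0.04 without wild-type disc replicate 2. The highest was RpL17, a protein at the mouth of the exit tunnel, at 0.26 ± 0.12 log2 (SE, adjusted p = 0.13). RpL17 read 14.59 and 14.68 in wild-type, 14.69, 14.73 and 14.65 in lgl and 14.87, 14.84 and 14.98 in scrib discs, so the scrib arrays did not overlap the others. RpL29 read 15.33 and 15.19 in wild-type, 15.26, 15.20 and 15.26 in lgl and 15.40, 15.40 and 15.49 in scrib discs, also without overlap. Both genes were called with a trended and robust variance, which gave 4 members in this comparison.

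In lgl brains 2 of 33 tested members were higher than in wild type, RpS5b and RpL24-like, against 25.3% of all tested probe sets. The bright genes gave differences from -0.15 to 0.68 log2 with a median of 0.04, and none passed. The median of the 33 tested members, also 0.04, was -0.04 with arrays centred on the median of all tested probe sets, -0.03 without wild-type brain replicate 2 and 0.13 without wild-type brain replicate 1. RpL17 (0.29 ± 0.12, SE), RpLP0 (0.29 ± 0.12, SE) and RpL3 (0.68 ± 0.27, SE) had unadjusted p below 0.05 but adjusted p of 0.089, 0.086 and 0.079.

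Scrib brains gave the most calls, 5 of 33 tested members, all higher, against 34.8% of all tested probe sets. They were RpS5b, RpL7-like, RpL24-like and the bright genes RpL17 and RpLP0. RpLP0, the base of the stalk, read 14.88 and 15.16 in wild-type brains and 15.37, 15.35 and 15.40 in scrib brains (0.35 ± 0.12 log2, SE, 1.28-fold, adjusted p = 0.033). RpL17 read 14.27 and 14.42 in wild-type and 14.68, 14.75 and 14.75 in scrib brains (0.38 ± 0.12 log2, SE, 1.30-fold, adjusted p = 0.023). The groups did not overlap for either gene, and the scrib arrays were the higher ones.

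Of the 30 bright genes 27 lay above 0 in scrib brains, against 54.4% of all tested probe sets. The median of the bright genes was 0.09 log2. The 33 tested members had a median of 0.10, against 0.07 over all tested probe sets. With each array centred on the median of all tested probe sets, which shifts this comparison by 0.14 log2, the members' median was -0.05. The calls of RpL17 (adjusted p = 0.14) and RpLP0 (adjusted p = 0.19) were then lost, as they were without wild-type brain replicate 1 (0.0998 and 0.20), and the count of members called was 3 in both settings. The RpLP0 call was also lost with a replicate block (adjusted p = 0.055) and with quantile normalization (0.14). Leaving out any scrib brain array ended it as well (0.058 to 0.079), and RpL17 was lost without scrib brain replicate 2 (0.055) or 3 (0.057). Array weights by group and fits on only the groups compared ended both calls.

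**Figure D2:**
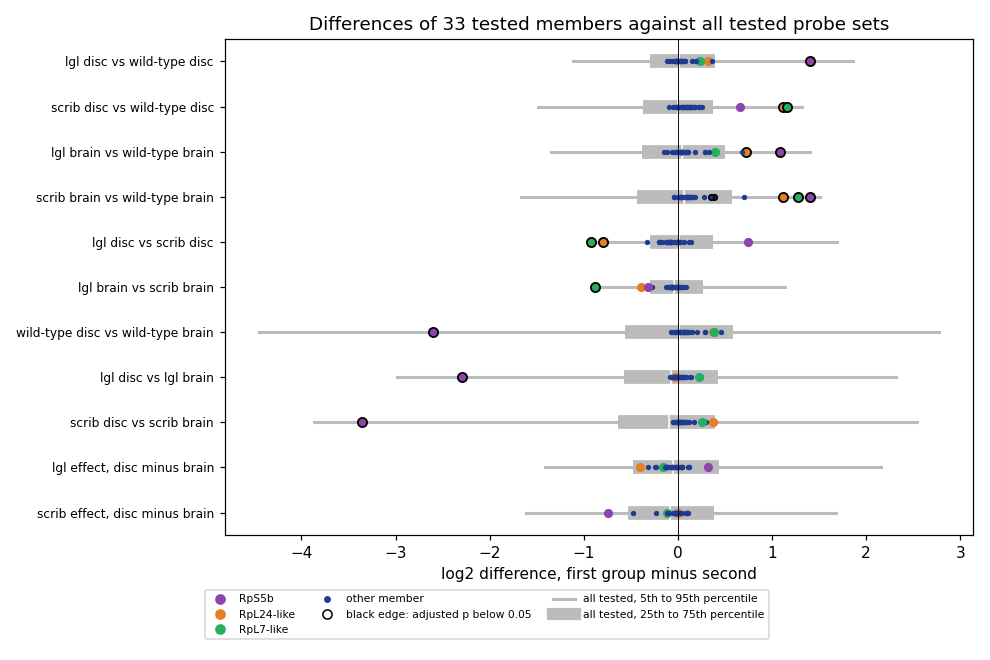
Log2 difference (horizontal axis, first group minus second) of the 33 tested members in 11 comparisons; coloured points are RpS5b, RpL24-like and RpL7-like, small blue points are the 30 bright genes, black edges mark adjusted p below 0.05 and grey bars give the percentiles of all tested probe sets. The bright genes stay within -0.48 and 0.70 in every comparison, while RpS5b reaches -3.35.

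RpL7-like and RpL24-like are relatives of RpL7 and RpL24, and their counterparts in yeast, Rlp7 and Rlp24, act in the assembly of the large subunit and are not parts of the working ribosome. RpL7-like read 12.21 and 11.39 in wild-type discs, 12.11, 12.09 and 11.92 in lgl discs and 12.91, 12.87 and 13.10 in scrib discs. In brains RpL7-like read 11.83 and 11.02 in wild type, 11.73, 11.71 and 12.02 in lgl and 12.67, 12.67 and 12.76 in scrib. In each tissue the scrib arrays lay above all wild-type and lgl arrays, which overlapped each other.

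RpL7-like was 2.23-fold higher in scrib than in wild-type discs (1.16 ± 0.25 log2, SE, adjusted p = 0.0055) and 2.42-fold higher in brains (1.28 ± 0.25, SE, adjusted p = 0.0019). Its differences between lgl and wild type did not pass, at 0.24 ± 0.25 log2 (SE, adjusted p = 0.58) in discs and 0.40 ± 0.25 (SE, adjusted p = 0.26) in brains. The disc call in scrib was lost without wild-type disc replicate 2, at 0.75 log2 (adjusted p = 0.065). With only the groups compared both scrib calls were lost (adjusted p = 0.075 in discs and 0.055 in brains). Without both wild-type replicate 1 arrays, an alternative chosen after seeing the data, RpL7-like was also called higher in lgl discs (0.64 log2, adjusted p = 0.016) and lgl brains (0.80 log2, adjusted p = 0.0067). Without wild-type disc replicate 2 the lgl difference in discs was -0.17 (adjusted p = 0.70), and without wild-type brain replicate 2 the lgl difference in brains was -0.01 (adjusted p = 0.99).

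RpL24-like read 12.65 and 12.20 in wild-type discs, 12.71, 12.80 and 12.72 in lgl discs and 13.48, 13.45 and 13.68 in scrib discs. In brains RpL24-like read 12.39 and 11.71 in wild type, 12.67, 12.58 and 13.07 in lgl and 13.13, 13.26 and 13.11 in scrib. The 3 genotypes stood in the order wild type, lgl, scrib in both tissues with no overlap. The difference between scrib and wild type was 1.11 ± 0.21 log2 (SE, 2.16-fold, adjusted p = 0.0025) in discs and 1.12 ± 0.21 (SE, 2.17-fold, adjusted p = 0.0015) in brains. Weighting arrays by group ended the brain call (adjusted p = 0.052), as did a fit on only the groups compared (0.057).

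For lgl against wild type RpL24-like passed in brains (0.73 ± 0.21 log2, SE, 1.65-fold, adjusted p = 0.025) and not in discs (0.32 ± 0.21, SE, adjusted p = 0.33). The lgl effect did not differ between tissues by the test of that difference (-0.40 ± 0.30 log2, SE, adjusted p = 0.42). The brain call in lgl was lost without lgl brain replicate 3 (adjusted p = 0.080) and without wild-type brain replicate 2 (0.39 log2, adjusted p = 0.16). It was also lost with each array centred on the median of all tested probe sets (adjusted p = 0.058). Array weights by group (adjusted p = 0.25) and a fit on only the groups compared (0.18) ended it as well.

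Lgl and scrib larvae had the same age, and their difference is taken between mutant arrays alone, while its error also draws on the wild-type arrays through the shared variance. In discs this comparison called 2 of 33 tested members, against 20.5% of all tested probe sets. RpL7-like was 1.89-fold lower in lgl than in scrib discs (-0.92 ± 0.22 log2, SE, adjusted p = 0.012), and RpL24-like was 1.73-fold lower (-0.79 ± 0.19, SE, adjusted p = 0.011). In brains 1 of 33 was called, against 11.5% of all tested probe sets. RpL7-like was 1.84-fold lower in lgl brains (-0.88 ± 0.22 log2, SE, adjusted p = 0.024), while RpL24-like did not pass (-0.39 ± 0.19, SE, adjusted p = 0.21). Without both wild-type replicate 1 arrays RpL24-like passed too (adjusted p = 0.049), and the brain count was 2. The RpL7-like call was lost in discs without scrib disc replicate 3 (adjusted p = 0.053). In brains it was lost on leaving out any array of both groups other than lgl brain replicate 3, with adjusted p between 0.055 and 0.084 and differences between -0.90 and -0.82 log2.

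Among the bright genes none was called between lgl and scrib, with ranges of -0.33 to 0.14 log2 in discs and -0.27 to 0.08 in brains. In each tissue 8 of the 30 were above 0, against 51% of all tested probe sets in discs and 44.8% in brains. In brains the median of the 33 tested members, -0.06, was 0.00029 with arrays centred on the median of all tested probe sets. The lowest in both was RpL34a, of the large subunit, which read 13.28, 13.19 and 13.43 in lgl discs and 13.60, 13.55 and 13.72 in scrib discs. The disc groups did not overlap (-0.33 ± 0.16 log2, SE, adjusted p = 0.16). These comparisons of discs and of brains share no arrays. Across the 30 genes their differences correlated with Pearson r = 0.76 and Spearman rho = 0.67, a description over genes measured on the same arrays, most of them small next to their standard errors.

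Of 3 controls that set a 3′ against a 5′ probe set, whose difference grows as RNA breaks down, only eIF-4a separated scrib from the other genotypes in both tissues. In discs it read 1.65, 1.71 and 1.996 log2 in scrib, 2.26, 2.14 and 2.26 in lgl and 2.35 and 2.29 in wild type. In brains it read 1.78, 1.76 and 1.85 in scrib, 1.98, 2.37 and 2.36 in lgl and 2.32 and 2.70 in wild type. For GAPDH the scrib disc arrays were also lowest, at 0.35, 0.31 and 0.37 log2 against 0.49 or more on the other disc arrays. In brains the GAPDH values overlapped, with means of 0.61 for wild type, 0.595 for lgl and 0.61 for scrib, and the actin values of scrib overlapped the others in both tissues. The part of RNA quality in the RpL7-like and RpL24-like differences was not tested.

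**Figure D3:**
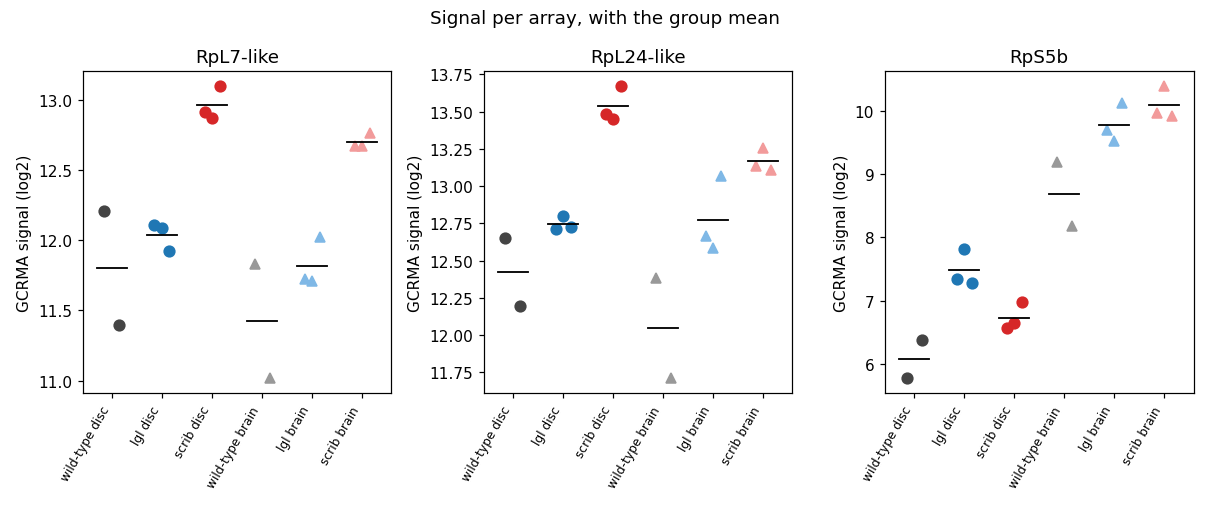
Signal (log2, vertical axis) of RpL7-like, RpL24-like and RpS5b on each array by group, with a line at the group mean; each panel has its own scale, which does not start at 0. The scrib arrays are highest for RpL7-like in both tissues, from 12.67 to 13.10, and every brain array exceeds every disc array for RpS5b, 8.18 or more against 7.81 or less.

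RpS5b is a duplicate of the small-subunit gene RpS5a and is known for its expression in the ovary. RpS5b lies on 3R, and its probe set is not marked as shared between transcripts. In discs RpS5b read 5.78 and 6.38 in wild type, 7.35, 7.81 and 7.28 in lgl and 6.57, 6.66 and 6.99 in scrib. In brains RpS5b read 9.19 and 8.18 in wild type, 9.69, 9.51 and 10.11 in lgl and 9.96, 10.39 and 9.91 in scrib. All brain arrays were above all disc arrays. Within each tissue the mutant arrays were above the wild-type ones. Lgl lay above scrib in discs, while in brains the mutants overlapped.

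In wild type RpS5b was 6.09-fold lower in discs than in brains (-2.61 ± 0.34 log2, SE, adjusted p = 3.2e-05). The difference was -2.29 ± 0.28 log2 (SE, 4.90-fold, adjusted p = 2e-05) in lgl and -3.35 ± 0.28 (SE, 10.2-fold, adjusted p = 4.6e-07) in scrib. RpS5b was the 1 member called of 33 tested in each of these 3 comparisons, which share no arrays with each other. Of all tested probe sets 42.8% were called between the wild-type tissues, 44.7% between lgl tissues and 46.2% between scrib tissues. Under every alternative the tissue call of RpS5b was kept, with adjusted p up to 0.041 for wild type, up to 0.00033 for lgl and up to 2.6e-05 for scrib. The bright genes differed between tissues by -0.08 to 0.46 log2 in wild type, by -0.08 to 0.25 in the lgl mutant and by -0.05 to 0.30 in the scrib mutant.

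RpS5b rose 2.64-fold in lgl discs over wild-type discs (1.40 ± 0.31 log2, SE, adjusted p = 0.0067). In brains RpS5b rose 2.12-fold in lgl (1.09 ± 0.31 log2, SE, adjusted p = 0.023) and 2.65-fold in scrib (1.40 ± 0.31, SE, adjusted p = 0.0039). Its difference in scrib discs was 0.66 ± 0.31 log2 (SE, adjusted p = 0.15). The difference between lgl and scrib discs itself did not pass, at 0.74 ± 0.28 log2 (SE, adjusted p = 0.076), nor in brains, at -0.32 ± 0.28 (SE, adjusted p = 0.52). The disc difference passed when arrays were weighted by group (adjusted p = 0.010), with only the groups compared (0.033) and without both wild-type replicate 1 arrays (0.020). The lgl disc call was lost without wild-type disc replicate 1 (1.10 log2, adjusted p = 0.078). The lgl brain call was lost without wild-type brain replicate 2 (0.58 log2, adjusted p = 0.16) and without lgl brain replicate 3 (0.92 log2, adjusted p = 0.072). Fits on only the arrays compared and, in brains, fits with array weights by group ended the 3 calls, with adjusted p between 0.053 and 0.28. Without a filter the lgl brain call was lost too (adjusted p = 0.062).

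Whether mutant effects on the members depended on the tissue was tested directly. The lgl effect in discs minus that in brains called 0 of 33 tested members with limma, 0 at an unadjusted p below 0.05, against 13.5% of all tested probe sets. The scrib effect called 0 of 33, 0 at an unadjusted p below 0.05, against 11.3%. For RpS5b the lgl effect differed by 0.32 ± 0.44 log2 (SE, adjusted p = 0.69) and the scrib effect by -0.75 ± 0.44 (SE, adjusted p = 0.31). Without both wild-type replicate 1 arrays the scrib value for RpS5b was -1.55 (adjusted p = 0.039).

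Marker genes of neuroblasts, the stem cells of the larval brain, were read beside RpS5b. The mean signal of 6 such genes (ase, dpn, grh, insc, mira and wor) ran from 6.11 to 6.47 in wild-type, 6.97 to 8.76 in lgl and 6.17 to 6.62 in scrib discs. In brains it ran from 9.03 to 9.36 in wild type, 10.84 to 11.03 in lgl and 10.63 to 11.11 in scrib. Of these 6 genes 4 were called higher and 0 lower in each mutant brain against wild type, 3 higher and 1 lower in lgl discs, and 1 higher and 1 lower in scrib discs. The list was thus higher with RpS5b in mutant brains and mixed in discs. In lgl discs grh fell. In scrib discs, where all RpS5b arrays were above wild type, 2 of the 6 were above 0, the list mean overlapped wild type, and wor and ase were below 4 on all 3 arrays. Neuronal markers were lower in mutant brains, 6 of 9 in lgl and 6 of 9 in scrib, but 4 of 9 were higher and 0 lower in lgl discs. Glial markers were higher for 2 of 6 and lower for 0 in lgl discs, with repo up by 7.05-fold and moody by 13.4-fold. In scrib discs 1 was higher, moody by 9.51-fold, and 1 lower, Gs2 by 48.1-fold. In lgl brains 1 was higher and 2 lower, and in scrib brains 0 were higher and 1 lower.

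Markers of the germ line, the tissue for which RpS5b is known, were near the lowest value. All 6 (vas, piwi, aub, bam, zpg and AGO3) were below 4 on every array of 5 groups, and in scrib brains vas, piwi, zpg and AGO3 were. In scrib brains aub was 1.89 log2 higher than in wild type. The part of neuroblasts, neurons or glia in the RpS5b differences was not tested.

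**Figure D4:**
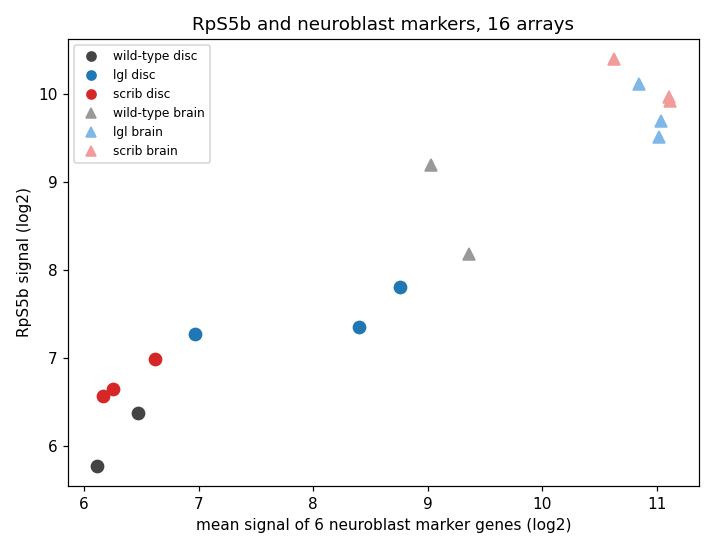
RpS5b signal (log2, vertical axis) against the mean signal of 6 neuroblast marker genes (log2, horizontal axis) on 16 arrays, with discs as circles and brains as triangles; neither axis starts at 0. Wild-type and scrib discs sit at the lower left, lgl discs between 6.97 and 8.76 on the horizontal axis, and mutant brains at the upper right.

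The 7 members of the lowest band were RpL10Aa, RpL22-like, RpL37-2, RpS10a, RpS19b, RpS28a and RpS28-like. They did not reach 4 on 2 arrays and were not tested. RpL10Aa read 2.21 on all 16 arrays. RpS28-like reached 2.27, RpS10a 2.43, RpS28a 2.54, RpL37-2 3.01 and RpS19b 3.64, the last on wild-type disc replicate 2. RpL22-like, known from the testis, reached 4.12 on scrib disc replicate 2 and read 3.11 and 2.73 on the other scrib disc arrays. Values this low have no measured order. Their counterparts among the bright genes were read on all arrays, with RpL10Ab between 14.94 and 15.09, RpL37-1 between 15.01 and 15.25 and RpS28b between 15.35 and 15.55.

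Of the 30 bright genes 14 were read by probe sets with the suffix s_at and 4 with a_at, which mark probes shared between transcripts. Where those transcripts come from different genes, reads of near-identical copies cannot be told apart. Further probe sets of RpL3, RpS7, RpS29 and RpS30 gave additional readings. The second RpS29 probe set, with a mean of 15.10, was called in no comparison. A dim RpS30 probe set, with a mean of 6.28, was higher in scrib discs than in scrib brains (1.76 ± 0.45 log2, SE, adjusted p = 0.0057), which the bright one was not. A dim RpL3 probe set, with a mean of 4.43, was higher in wild-type discs than in brains (1.35 ± 0.37, SE, adjusted p = 0.0093). No pair of probe sets of a gene was called in opposite directions.

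Other genes of protein synthesis were counted in the same comparisons, from lists that share no gene with the members. The gene eIF6 is in both the biogenesis and the initiation list and is counted in each. Of 25 tested genes of ribosome biogenesis, 10 were higher and 1 lower in lgl brains and 9 higher and 0 lower in scrib brains. In discs 1 was higher and 0 lower in lgl, and 3 were higher and 3 lower in scrib. The medians were 0.30 and 0.23 log2 in lgl and scrib brains, against 0.04 and 0.09 over all 7213 tested genes, and -0.13 and -0.19 in discs, against 0.02 and 0.01. Of all tested genes 14.2% were higher in lgl brains and 20.7% in scrib brains, and 12.6% in lgl discs and 12.9% in scrib discs. The shares called lower were 11.3%, 14.4%, 5.63% and 9.95% in the same order, and serve for each list described here.

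Non1, a nucleolar GTPase that acts in large-subunit assembly, was higher in all 4 mutant groups. Its rise was 2.27-fold in lgl discs (adjusted p = 0.00022), 3.15-fold in scrib discs (adjusted p = 1.5e-05), 2.46-fold in lgl brains (adjusted p = 0.00017) and 4.09-fold in scrib brains (adjusted p = 2.7e-06). Like RpL7-like, Non1 was lower in lgl than in scrib in discs (-0.48 ± 0.14 log2, SE, adjusted p = 0.032) and in brains (-0.73 ± 0.14, SE, adjusted p = 0.0053). Of the 25 biogenesis genes 0 were higher and 1 lower in lgl than in scrib in each tissue. Of all tested genes 11.9% were higher and 8.71% lower in discs, and 5.28% and 5.68% in brains. The factor eIF6, which keeps new large subunits from joining small ones, rose in lgl brains (0.81 ± 0.14 log2, SE, adjusted p = 0.0013) and scrib brains (0.93 ± 0.14, SE, adjusted p = 0.00029). Its mutant effects were smaller in discs than in brains for both lgl (-0.89 ± 0.19, SE, adjusted p = 0.0092) and scrib (-0.71 ± 0.19, SE, adjusted p = 0.034).

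Between wild-type tissues 11 of the 25 biogenesis genes were higher in discs and 0 in brains, with a median of 0.47 log2. Of all tested genes 20.6% were higher and 22.3% lower in discs, with a median of 0.01. The 11 higher genes included l(1)G0020 (1.24 ± 0.19, SE, adjusted p = 0.00013), bys (0.84 ± 0.14, SE, adjusted p = 0.00032) and Nop60B (1.10 ± 0.19, SE, adjusted p = 0.00042), a pseudouridine synthase. Of the 33 tested ribosomal protein genes 0 were called higher in discs with limma, and their median was 0.06. That count was 4 without wild-type brain replicate 2, which turned the median to -0.02, 2 without wild-type brain replicate 1, 1 without wild-type disc replicate 2, 3 with no filter, 2 with trended and robust variance and 1 with quantile normalization. At an unadjusted p below 0.05 the main count was 3 in both directions together.

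Among 24 tested initiation factors 15 were higher and 4 lower in scrib brains, 9 higher and 2 lower in lgl brains, 9 higher and 4 lower in scrib discs and 0 higher and 3 lower in lgl discs. Subunits of eIF3, which binds the small subunit, were among the rises, with eIF3f1 2.16-fold higher in scrib discs (adjusted p = 0.00013) and 2.32-fold higher in scrib brains (adjusted p = 5.3e-05). The falls included eIF4G2, a scaffold of the initiation complex, at -1.53 ± 0.22 log2 (SE, adjusted p = 0.00033) in scrib discs. Of 12 elongation and associated factors 1 was higher in lgl discs, 2 were lower in scrib discs, 0 were called in lgl brains and 1 was lower in scrib brains. That rise was in eEF1alpha2, which differed from wild type by 2.68 ± 0.73 log2 (SE, adjusted p = 0.023) in lgl and by -4.34 ± 0.73 (SE, adjusted p = 0.0012) in scrib discs. In wild type eEF1alpha2 was 34.6-fold lower in discs than in brains (-5.11 ± 0.80 log2, SE, adjusted p = 0.00017). The part of cell types in its disc differences was not tested.

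Of 7 tested regulators of ribosomal protein genes or of translation, Irbp18, a bZIP partner of Xrp1, rose in scrib discs (1.77 ± 0.26 log2, SE, adjusted p = 0.00042) and scrib brains (0.73 ± 0.26, SE, adjusted p = 0.045). Trf2, a TBP relative that acts at ribosomal protein promoters, fell in scrib brains (-1.70 ± 0.31, SE, adjusted p = 0.0013), and M1BP, which binds such promoters, rose there (0.42 ± 0.14, SE, adjusted p = 0.039). None of the 7 was called in lgl discs or lgl brains.

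**Figure D5:**
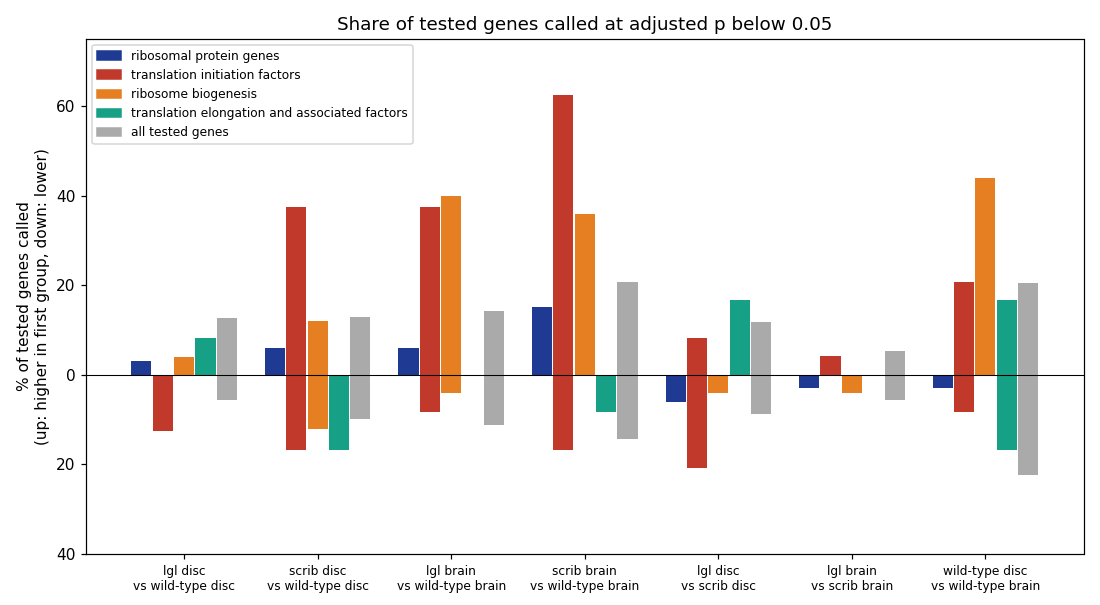
Share of tested genes called at adjusted p below 0.05 (vertical axis, percent; upward bars are higher and downward bars lower in the first group) for ribosomal protein genes, 3 lists of protein synthesis genes and all 7213 tested genes in 7 comparisons. The bars for ribosomal protein genes stand for 5 of 33 genes at most, in scrib brains, where 15 of 24 initiation factors and 9 of 25 biogenesis genes were higher. The gene eIF6 is counted in both of the latter lists.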

How the data were processed

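Biotin-labelled cRNA was hybridised to Affymetrix Drosophila arrays, per the labels. The deposited values are log2 signals that the authors made with GCRMA, per the submitters' processing notes, version not given in the sources used here. Arrays were grouped by the tissue and genotype in their labels, and all 16 were used. Gene symbols came from the platform annotation and chromosome arms from the RefSeq gene table of assembly Release 6 plus ISO1 MT. All 183 control probe sets were left out of tests.

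The fit was made in limma 3.58.1 (R 4.3.3), with a mean for each of 6 groups, 10 residual degrees of freedom and 11 contrasts, and was tested on simulated data. Probe sets at or above 4 on at least 2 arrays entered, 8819 in all. For gene lists each gene was represented by its probe set with the highest mean. Fold changes are powers of 2 of the log2 differences.

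Members and lists were chosen with earlier results of these data known. Named were up to 4 called members per contrast and direction, the 5 brightest and 10 dimmest, paralogues, stalk genes, and up to 3 genes per list and contrast. RpL17, RpL29, RpL3, RpS12, RpS27A, RpL40, RpL34a and RpL37-1 were also named after their values were seen. Same-numbered replicates were not paired: over all tested probe sets 6 of 36 pairs of arrays had deviations correlated above 0.1, from -0.17 to 0.43. Over the 30 bright members 17 of 36 were above 0.1, from -0.54 to 0.85. Not every pair was above 0.1 in either set. The highest in both sets was wild-type disc with wild-type brain. With 2 arrays in a group the deviations mirror each other, so this pair counts for replicate 1 and again for replicate 2. The main fit did not pair these arrays, also between the wild-type tissues. No 2 arrays held identical values. Alternatives are given in the closing section.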

Additional observations from a re-analysis of the deposited data

Results flagged for a closer look

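The lgl and scrib mutants, set against the same wild-type arrays, differed from each other by a test of the difference itself in 3 cases. RpL7-like was lower in lgl than in scrib discs (-0.92 log2, limma adjusted p = 0.012) and lower in lgl than in scrib brains (-0.88 log2, adjusted p = 0.024). RpL24-like was lower in lgl than in scrib discs (-0.79 log2, adjusted p = 0.011). In each of the 3, all 3 lgl arrays were below all 3 scrib arrays. The RpL7-like call was lost in discs without scrib disc replicate 3 (adjusted p = 0.053) and in brains on leaving out any of 5 of the 6 arrays (0.055 to 0.084). Dixon's test for a single far array was not run on groups of 2 or 3.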

How the results depend on the processing

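Of 189 recomputed counts of members called, 141 stayed within 1.5 times the main count. Of 599 recomputed log2 differences of named members, 522 kept direction and call, 45 lost the call, 13 gained it and 19 changed sign, and the latter were uncalled before and after. Causes were not tested unless stated. Leaving out 1 array gave 0 to 4 members for lgl against wild-type brains, 3 to 7 for scrib brains, 0 to 1 for lgl discs and 1 to 2 for scrib discs. It gave 1 to 2 for lgl against scrib discs, 0 to 1 for lgl against scrib brains, 1 to 5 between wild-type tissues and 0 to 1 for each tissue difference of a mutant effect. A wild-type group left with 1 array is assumed to vary like the others.

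Without a filter the counts were 4 for lgl against wild-type brains, 5 for lgl against scrib discs, 0 for lgl against scrib brains, 4 between wild-type tissues and 2 between the tissues of each mutant. With array weights by group they were 0 for lgl brains, 1 for scrib brains, 7 for lgl against scrib discs and 2 between scrib tissues. Fits on only the groups compared, which have fewer samples, gave 0 for lgl discs, lgl brains and scrib brains, 1 for scrib discs, 4 for lgl against scrib discs and 2 between scrib tissues. Trended and robust variance gave 4 for lgl brains, scrib discs and lgl against scrib discs, 3 between wild-type tissues and 2 between scrib tissues. Quantile normalization gave 2 between wild-type tissues, and the mean of all probe sets of a gene 2 between scrib tissues. Centring on the members' median gave 3 for scrib brains. Of the alternatives chosen after seeing the data, centring on the median of all tested probe sets gave 1 for lgl and 3 for scrib brains. Leaving out both wild-type replicate 1 arrays gave 2 for lgl discs and for lgl against scrib brains, 3 between scrib tissues and 1 for the tissue difference of the scrib effect.

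The gained calls between wild-type tissues were all higher in discs. Of 189 recomputed medians of the members 24 moved by more than the SD of the array medians, 0.058 log2. The replicate block kept all 11 counts within 1.5 times and changed 1 of 35 calls on named members, RpLP0 in scrib brains (0.34 log2, adjusted p = 0.055). The changes of sign, on the log2 scale, were these. RpL24-like between lgl tissues (main -0.029) gave 0.00033 when centred on all tested probe sets and -0.13 to 0.12 on leaving out 1 array. The tissue difference of the scrib effect on RpL24-like (main -0.0044) gave 0.057 when centred on all tested probe sets, 0.063 when centred on the members and -0.34 to 0.33 on leaving out 1 array. For RpL7-like, leaving out 1 array gave -0.17 to 0.64 in lgl discs, -0.0091 to 0.80 in lgl brains and -0.027 to 0.79 between wild-type tissues. The tissue difference of the effect on RpL7-like ran from -0.57 to 0.25 for lgl and from -0.53 to 0.29 for scrib. For RpS5b the tissue difference of the lgl effect was -0.49 without both wild-type replicate 1 arrays and -0.19 to 0.82 on leaving out 1 array. Wild type had only 2 arrays per tissue. How far the bright genes' signals still follow the RNA amount was not tested.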
